A study of Sus scrofa with 8 samples.

Results

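The small leucine-rich proteoglycans are secreted core proteins built of leucine-rich repeats, most of which carry glycosaminoglycan chains. In connective tissue they bind collagen fibrils and growth factors and set the thickness and spacing of fibrils. The 10 genes described here were taken by name from the RefSeq annotation of the pig genome, Sscrofa11.1, out of 19487 protein-coding genes on chromosomes 1 to 18 and X. They are DCN (decorin), BGN (biglycan) and ASPN (asporin) of class I, FMOD (fibromodulin), LUM (lumican), PRELP (prolargin), KERA (keratocan) and OMD (osteomodulin) of class II, and EPYC (epiphycan) and OGN (osteoglycin, also called mimecan) of class III. Classes I to III group the family by sequence and by the spacing of cysteines near the start of the protein. The rule itself uses names and no measured value.

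The chromatin data came from pig embryonic fibroblasts (PEFs), which are connective tissue cells grown from fetuses of Large White pigs at an age of 35 days. All the cells were untreated and of the same genotype as far as the labels go, so that there is no group to compare with. ChIP-seq, in which DNA bound to a chosen protein is pulled down with an antibody and sequenced, was done for H3K4me3, H3K27ac and CTCF with 2 replicates each, making 6 libraries. The labels do not say whether replicates came from separate fetuses, and spread between replicates may therefore be technical.

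H3K4me3 is a histone mark of promoters and H3K27ac is a histone mark of active promoters and enhancers. CTCF is a DNA-binding protein that holds the ends of chromatin loops, most often at a pair of its motifs that point towards each other. Each library was available as a list of peaks, with a fold enrichment of each peak over the control and a q-value. A peak was assigned to a gene's transcription start site (TSS) where it lay within 1 kb of it, and a peak was called shared where it overlapped a peak of the other replicate by at least 1 bp. The lists hold between 37932 and 81164 peaks, without the number of reads in each. The fold enrichment of H3K4me3 was on different scales in the replicates, with a median at start sites of 52.2 in replicate 1 and 25.4 in replicate 2. Genes were therefore compared within a replicate, except where a mean of the replicates is named. Replicate 1 weighs more in such a mean of H3K4me3.

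The label of the cells was checked against marker genes. All 12 fibroblast markers, among them COL1A1, COL1A2, PDGFRA, THY1 and TWIST1, had H3K4me3 and H3K27ac at the TSS in both replicates. H3K4me3 was weak at FN1 (3.13-fold and 5.38-fold). None of 4 endothelial markers had either mark. None of 4 blood markers had H3K4me3, and SPI1 alone had H3K27ac. The 5 epithelial markers had H3K4me3, with H3K27ac at CLDN4 only. Both marks together were seen at 1 of 7 cartilage and bone markers (SOX9), 1 of 3 tendon markers (MKX), 1 of 3 muscle markers (DES) and 0 of 3 neural and glial markers. Peaks of mixed cells cannot be told apart in such lists, and the part of other cell types in the results below was not tested.

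The 10 genes lie in 4 places. DCN, LUM, KERA and EPYC stand in a row on chromosome 5 and are all read from left to right, from the start of DCN to the end of EPYC over 199 kb (chr5:91678601-91877779). OGN, OMD and ASPN stand in a row on chromosome 3 and are all read from right to left, over 76.4 kb (chr3:42116521-42192902). FMOD (chr9:64062995-64073853, minus strand) and PRELP (chr9:64190978-64207008, plus strand) are 117 kb apart on chromosome 9. BGN is on the X chromosome (chrX:124282048-124295450, plus strand). The genes are between 7.51 kb (LUM) and 40.1 kb (EPYC) long, with a median of 14.7 kb against 20.7 kb for protein-coding genes.

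The bases before the start sites are shown first, because the promoters other than that of BGN are clearly poor in the dinucleotide CG. BGN lies close to the limit used below. Each line gives the 120 bases before the TSS of RefSeq on Sscrofa11.1, read 5′ to 3′ on the strand of the gene, with each CG in capitals. The 5 shown are LUM, OGN and OMD, which carried both histone marks in PEFs, KERA, which did not, and BGN, the member with most CG.
LUM (chr5:91748751-91748870, plus strand): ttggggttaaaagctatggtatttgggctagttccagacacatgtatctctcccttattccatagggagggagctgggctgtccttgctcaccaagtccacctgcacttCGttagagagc
KERA (chr5:91794197-91794316, plus strand): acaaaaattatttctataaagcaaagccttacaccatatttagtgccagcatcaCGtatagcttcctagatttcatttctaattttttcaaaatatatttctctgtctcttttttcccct
OGN (chr3:42135941-42136060, minus strand): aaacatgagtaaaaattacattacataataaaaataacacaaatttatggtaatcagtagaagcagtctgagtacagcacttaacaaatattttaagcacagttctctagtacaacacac
OMD (chr3:42155033-42155152, minus strand): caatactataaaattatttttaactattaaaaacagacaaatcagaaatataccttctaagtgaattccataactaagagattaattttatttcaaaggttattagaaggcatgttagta
BGN (chrX:124281928-124282047, plus strand): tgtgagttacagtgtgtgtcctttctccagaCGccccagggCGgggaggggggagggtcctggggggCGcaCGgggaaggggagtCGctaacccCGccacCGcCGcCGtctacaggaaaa

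These stretches hold 1 CG in LUM, 1 in KERA, none in OGN or OMD, and 9 in BGN. Over the 1001 bp around the TSS, the CpG ratio, which is the number of CG over that given by the numbers of C and G, was between 0.042 in OMD and 0.591 in BGN, with a median of 0.207 in the 10 genes. The median of all protein-coding genes was 0.655. All 10 genes were under 0.6, BGN only just, as were 8617 of the 19487 genes. OMD had a lower ratio than all but 0.334% of genes. The marked members did not stand apart from KERA (0.209) and EPYC (0.253), whose values lay among those of the others.

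**Figure D1:**
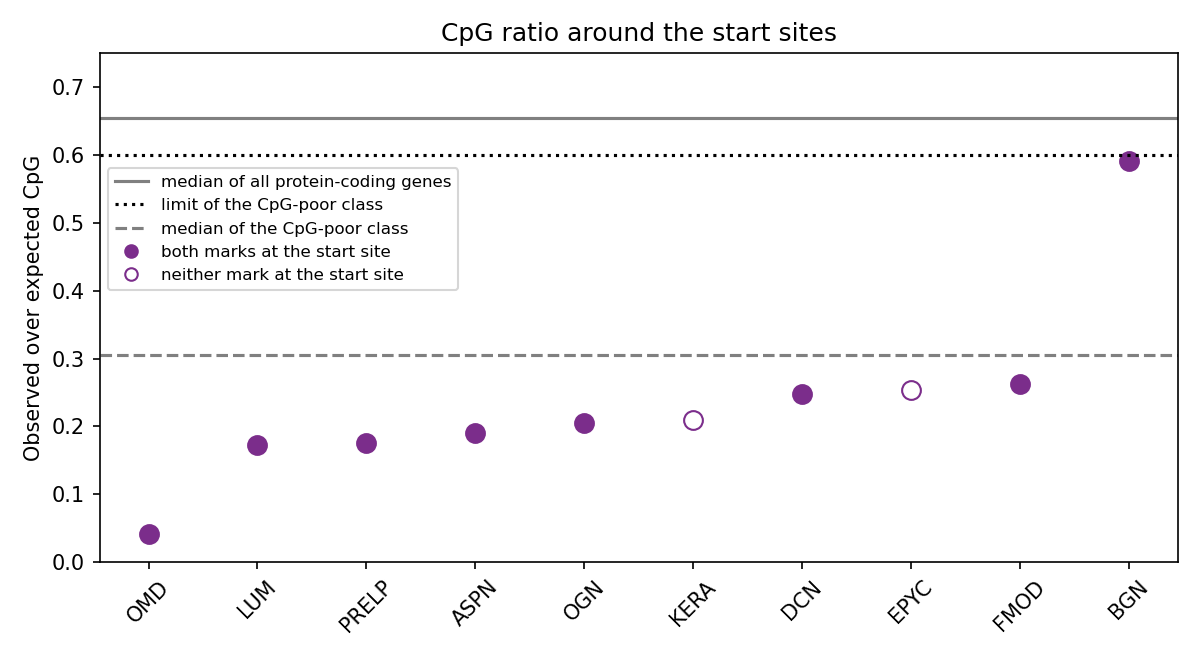
Observed over expected CpG in the 1001 bp around the TSS of each of the 10 genes, in order of the ratio (vertical axis, no unit). Filled points are genes with H3K4me3 and H3K27ac at the TSS in both replicates, and open points (KERA, EPYC) are genes with neither. All points lie under the median of all protein-coding genes (0.655) and under the limit of 0.6, and 9 of them lie under the CpG-poor median of 0.305.

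Short motifs were looked for in the 250 bases before each TSS, on both strands. The letters TATAAA were found in KERA, OMD and ASPN, against 9.64% of all promoters of the same length, and none of these matches lay within 40 bases of the TSS. In KERA and OMD the match can be seen near the start of the lines above, beginning 106 and 114 bases before the TSS. CCAAT was found in KERA, ASPN and FMOD (31.8% of all promoters). GGGCGG, a GC box, was found in BGN only (46.0%), and its forward match begins 82 bases before the TSS, where its CG is the second in capitals. GGAATG, the core of the TEAD motif, was found in PRELP only (10.3%). Neither TGANTCA (AP-1, 5.27%) nor AACCACA (RUNX, 3.45%) was found in any of the 10. CANNTG, the E-box, was found in 7 of them (61.8%).

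H3K4me3 was present at the TSS of 8 of the 10 genes in both replicates, against 68.9% of all protein-coding genes. H3K27ac was present at the same 8 genes (60.7% of all genes), and so were both marks together (58.9%). These shares of a list of 10 genes are near the background. Of the genes with a CpG ratio under 0.6, which all 10 members are, 33.1% had H3K4me3 at the TSS in both replicates. The exceptions were KERA, whose product keeps the cornea clear, and EPYC, whose product is found in growth plate cartilage. Neither gene had H3K4me3 or H3K27ac within 1 kb of its TSS in either replicate.

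In class I, decorin, the most widely expressed member of the family in fibrous tissue, had H3K4me3 at the TSS at 27.5-fold in replicate 1 and 23.9-fold in replicate 2. Its H3K27ac was 22.3-fold and 15.7-fold. Biglycan, which is close to decorin in sequence, had the highest H3K4me3 in replicate 1, at 37.7-fold, and 19.7-fold in replicate 2. Its H3K27ac was 15.8-fold and 20.6-fold. Asporin, which binds collagen and calcium, had 13.2-fold and 21.8-fold H3K4me3, and 25.03-fold and 11.3-fold H3K27ac. The order of the 3 genes by H3K27ac was thus turned round between replicates, and they cannot be ranked.

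In class II, lumican, which orders collagen fibrils in the cornea and the skin, had 14.7-fold and 28.4-fold H3K4me3 and 19.3-fold and 12.7-fold H3K27ac. Osteomodulin, a keratan sulfate proteoglycan of bone, had 9.55-fold and 18.9-fold H3K4me3, with 20.1-fold and 17.2-fold H3K27ac. Fibromodulin, which guides collagen cross-linking in tendon, had 19.9-fold and 11.7-fold H3K4me3 and 10.997-fold and 12.8-fold H3K27ac. PRELP, which ties basement membranes to connective tissue, had 15.0-fold and 10.1-fold H3K4me3, with 8.14-fold and 7.10-fold H3K27ac. Fibromodulin and PRELP were under lumican and osteomodulin in H3K27ac in replicate 1, whereas in replicate 2 fibromodulin and lumican were alike.

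In class III, osteoglycin had the lowest H3K27ac of the 8 genes in both replicates (7.43-fold and 6.47-fold) and the lowest H3K4me3 in replicate 1 (8.80-fold). In replicate 2 its H3K4me3 was 10.5-fold, next to PRELP. PRELP and OGN were thus the 2 lowest genes in H3K27ac in each replicate.

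**Figure D2:**
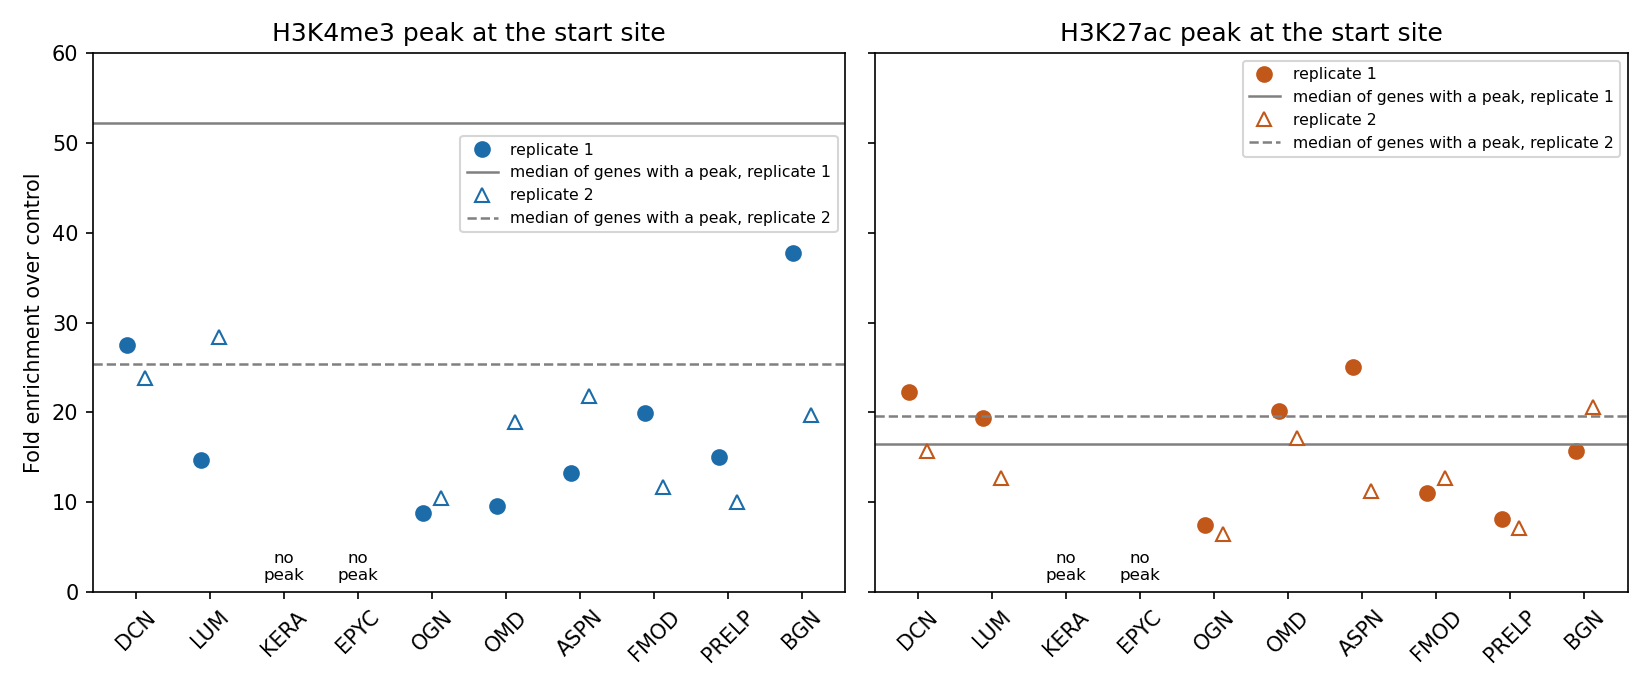
Fold enrichment over the control (vertical axis) of the peak at the TSS of each gene, for H3K4me3 (left) and H3K27ac (right). Filled circles are replicate 1, open triangles are replicate 2, and grey lines are the medians of all protein-coding genes with such a peak in both replicates (solid, replicate 1, and dashed, replicate 2). All 8 genes lie under the H3K4me3 median in replicate 1 and only LUM lies above it in replicate 2, while H3K27ac lies on both sides of its median in replicate 1 and under it in replicate 2 except in BGN.

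H3K4me3 at the 8 start sites was low for a promoter peak. The median was 14.9-fold in replicate 1 and 19.3-fold in replicate 2, whereas the 13423 genes with such a peak had medians of 52.2-fold and 25.4-fold. In replicate 1 none of the 8 genes was above the median of all genes and in replicate 2 LUM alone was. Genes with a CpG ratio under 0.6 and a peak had medians of 38.5-fold and 19.9-fold. The members were thus lower than CpG-poor genes in replicate 1 and close to them in replicate 2. H3K27ac had medians of 17.6-fold and 12.7-fold against 16.5-fold and 19.6-fold over 11830 genes. In replicate 1, 4 of the 8 genes were above that median, unlike H3K4me3, whereas in replicate 2 only BGN was. Each mark was thus under its own median in 7 of the 8 genes in replicate 2. The exception was LUM for H3K4me3 and BGN for H3K27ac.

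The same peaks were wide and lay mostly downstream of the TSS, though each began upstream of it. The median width of H3K4me3 was 5.41 kb in replicate 1 and 4.47 kb in replicate 2, against 2.75 kb and 2.92 kb over all genes with a peak, and against 2.19 kb and 2.33 kb over those that are CpG-poor. In each replicate 7 of the 8 genes were wider than the median, OGN being the exception in replicate 1 with 2.43 kb and in replicate 2 with 2.56 kb. The difference was on the downstream side. The peak ended 4665 and 3766 bp downstream of the TSS in the median member and 1764 and 1853 bp downstream in the median gene, and all 8 genes were above the latter in both replicates. On the upstream side the median start was 559.5 and 706.5 bp before the TSS in the members, against 829 and 890 bp.

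FMOD had the widest H3K4me3 peak in both replicates, with 8.11 kb and 8.74 kb, which covered 71.4% and 76.6% of the gene. The DCN peak was 5.56 kb and 8.45 kb wide. In LUM the peak was 6.61 kb wide in replicate 1 and was divided in replicate 2 into a peak of 3.55 kb at the TSS and another of 5.49-fold inside the gene. Together they covered 82.5% and 78.0% of this short gene. The summit of H3K4me3 was downstream of the TSS in all 8 genes and in both replicates, by between 443 bp (LUM, replicate 2) and 1925 bp (DCN, replicate 1), and it was within 1 kb in both replicates only in FMOD and BGN.

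H3K27ac was also wide, with a median of 5.05 kb and 5.51 kb against 2.45 kb and 2.48 kb, and all 8 genes were above the median in both replicates. BGN had the widest peak, of 7.28 kb and 16.5 kb. OMD differed from the others in that its H3K27ac summit was upstream of the TSS, by 828 and 940 bp, while its H3K4me3 summit was 1033 and 1046 bp downstream. OGN has 3 annotated transcripts, of which 1 starts 1.24 kb downstream of the TSS used here, inside the same peaks.

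**Figure D3:**
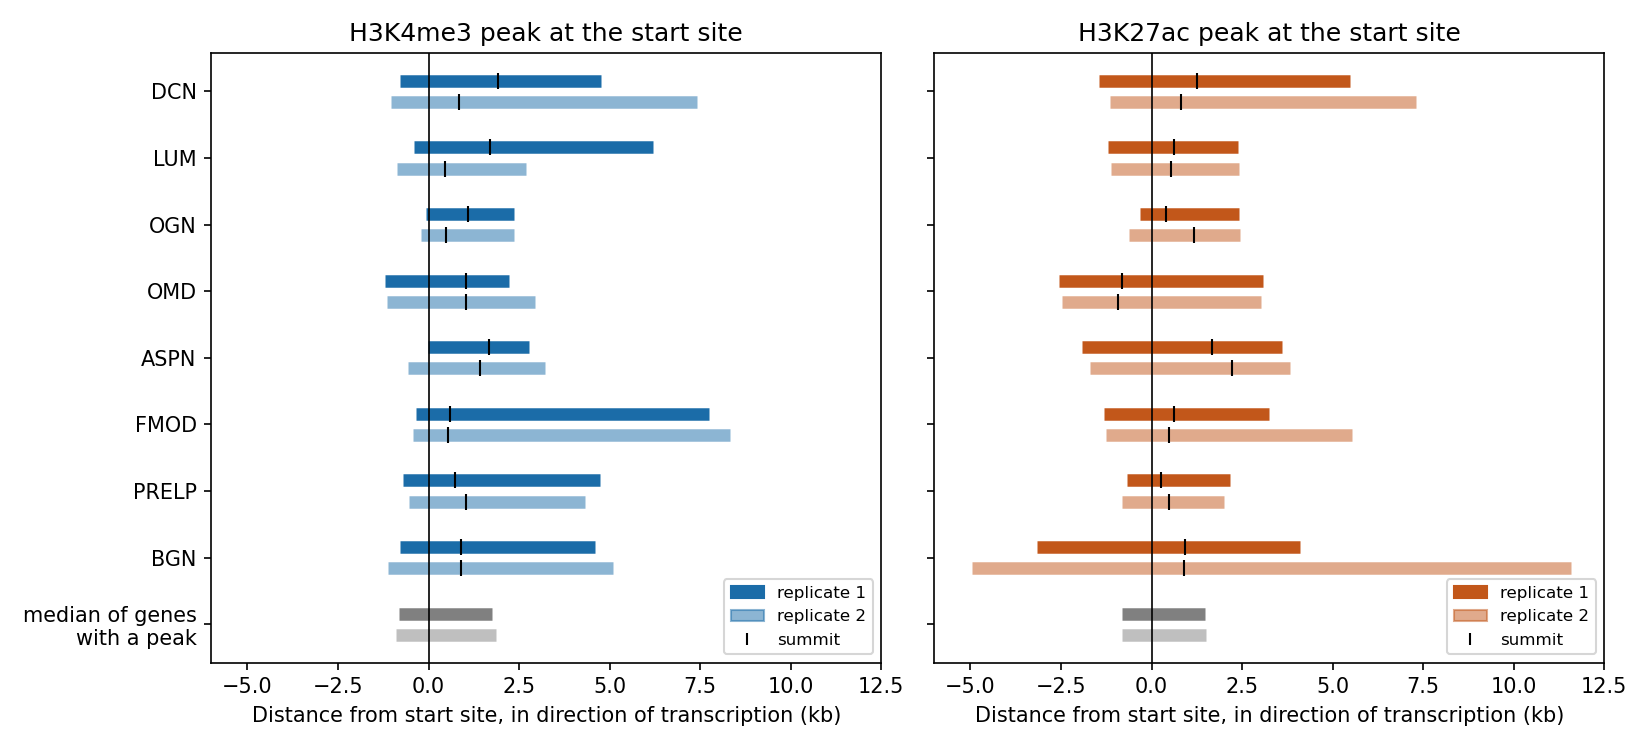
Extent of the peak at the TSS of each of the 8 marked genes, in kb from the TSS in the direction of transcription, for H3K4me3 (left) and H3K27ac (right). Dark bars are replicate 1, pale bars are replicate 2, short vertical lines are summits, and grey bars join the median start and the median end over all genes with a peak. The bars reach farther to the right than the grey ones in all 8 genes, most in FMOD for H3K4me3 (7.75 and 8.31 kb) and in BGN for H3K27ac in replicate 2 (11.6 kb).

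The replicates differed in some of these genes in a way that was uncommon among all genes but was not limited to the family. The H3K4me3 fold enrichment at the TSS in replicate 2, divided by that in replicate 1, had a median of 0.499 over 13423 genes and was above 1 in 2.00% of them. It was 1.92 in LUM, 1.98 in OMD, 1.65 in ASPN and 1.19 in OGN, and 0.868 in DCN. It was 0.523 in BGN, 0.586 in FMOD and 0.671 in PRELP, nearer to the median. The 5 genes with the highest ratios were thus the 5 marked genes of the clusters on chromosomes 5 and 3. Among CpG-poor genes with a peak, 6.03% had a ratio above 1. Of the 12 fibroblast markers 3 did, namely FN1 (1.72), COL3A1 (1.48) and VIM (1.17), and COL1A2 had 0.975. The FN1 ratio rests on weak peaks of 3.13-fold and 5.38-fold.

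For H3K27ac the ratio had a median of 1.18 and was under 1 in 18.2% of the 11830 genes. It was under 1 in 6 of the 8 members, with 0.451 in ASPN, 0.657 in LUM, 0.702 in DCN, 0.853 in OMD, 0.871 in OGN and 0.872 in PRELP. It was 1.16 in FMOD and 1.30 in BGN. Of the 12 fibroblast markers 6 were under 1, among them FN1 (0.244), PRRX1 (0.728) and COL3A1 (0.842). LUM, for instance, lay above 6.56% of genes with a peak in H3K4me3 and above 61.2% in H3K27ac in replicate 1, and above 62.4% and 25.6% in replicate 2. ASPN lay above 5.86% and 80.1% in replicate 1, and above 35.9% and 21.2% in replicate 2. In both genes replicate 2 thus held more H3K4me3 relative to other genes and less H3K27ac. With 1 pair of libraries for each mark, a difference between cultures and one between library preparations cannot be told apart.

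CTCF was at the TSS of 0 of the 10 genes in both replicates, against 17.9% of all protein-coding genes. BGN had a CTCF peak within 1 kb in replicate 2 only, of 6.43-fold with its summit 581 bp downstream.

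Inside the gene bodies, H3K4me3 summits were found in both replicates in 8 of the 10 genes (65.4% of all genes), which were the 8 with a peak at the TSS. H3K27ac summits were also found in 8 genes (61.1%), among them EPYC and not OMD, whose summit is upstream. CTCF summits were found in 5 genes (46.1%), namely DCN, LUM, EPYC, FMOD and BGN. None of the shares departed far from the background.

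PRELP had the most H3K27ac summits, with 5 in each replicate, and the highest of these was not at the TSS but 4752 and 4710 bp into the gene, at 18.8-fold and 22.1-fold. In FMOD, H3K27ac peaks covered 95.4% and 96.6% of the gene, and in BGN 73.0% and 86.4%. ASPN had 3 and 5 H3K27ac summits, of which those at 14.2 and 14.4 kb and at 19.2 kb from the TSS were present in both replicates at between 5.71-fold and 8.06-fold. KERA had no peak of any of the 3 kinds in its gene body.

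EPYC had no mark at the TSS of the gene but is annotated with a second transcript that starts 24.7 kb downstream. A shared H3K27ac peak of 7.998-fold and 5.26-fold lay within 1 kb of that second start, with its summit 26.4 kb from the first TSS in both replicates. The summit of a CTCF peak of 22.3-fold and 34.5-fold lay 26.3 kb from the first TSS. No H3K4me3 peak accompanied it. A smaller H3K4me3 peak of 5.90-fold was seen 10.8 kb into EPYC in replicate 2 only.

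The cluster on chromosome 5 was then described with 200 kb on each side (chr5:91478601-92077779, 599 kb). Besides the 4 members, 1 protein-coding gene starts there, CCER1, and it had none of the 3 marks at its TSS. H3K27ac peaks numbered 35 in replicate 1 and 31 in replicate 2, or 58.4 and 51.7 per Mb, above the values of 37.0 and 40.2 per Mb over chromosome 5. H3K4me3 gave 11 and 19 peaks (18.4 and 31.7 per Mb, against 18.3 and 21.5). CTCF gave 14 peaks in each replicate (23.4 per Mb, against 18.5 and 20.5).

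H3K27ac was uneven along the cluster. The 200 kb before DCN held 14 and 13 peaks, the 34.9 kb between DCN and LUM held 5 and 5, and the 37.9 kb between LUM and KERA held 5 and 4. The 200 kb after EPYC held 3 and 2 H3K27ac peaks and no H3K4me3 in either replicate. From the last H3K4me3 summit, in EPYC, to the end of the window there were 229 kb without one. Of 27 shared H3K27ac regions, 25 were more than 1 kb from the TSS taken for each gene. Of these 25, 9 also overlapped a shared H3K4me3 region. The 25 include the region in EPYC that holds the start of its second transcript.

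By the mean of the replicates, the highest shared H3K27ac region lay between DCN and LUM (chr5:91718298-91724835, 6.54 kb), at 23.0-fold and 18.7-fold, above the H3K27ac of the DCN promoter in each replicate. It also overlapped a weak H3K4me3 region of 6.13-fold and 7.95-fold. The next was 167 kb before DCN in an intron of the uncharacterised gene LOC102159901 (chr5:91510569-91512418), at 20.7-fold and 18.3-fold. It overlapped H3K4me3 of 40.9-fold and 27.5-fold and CTCF of 30.4-fold and 30.3-fold. No TSS lay within 1 kb where 1 was taken per gene, and the starts of other transcripts were not checked there. The DCN promoter itself was the third region. KERA was nearest to a shared H3K27ac region 7.34 kb upstream (7.06-fold and 8.004-fold) and to a shared H3K4me3 region 17.99 kb downstream (3.96-fold and 4.41-fold). That H3K4me3 region lay 24.1 kb upstream of EPYC, whose nearest shared H3K27ac region was 17.99 kb upstream (8.94-fold and 6.45-fold).

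By the mean of the replicates, the highest shared CTCF peaks of this locus were 224 kb to the right of the DCN start (chr5:91902231-91903194, 53.6-fold and 77.7-fold), in an intron of DCN (chr5:91682529-91683463, 40.1-fold and 44.1-fold) and 119.9 kb before DCN (chr5:91557936-91559114, 30.3-fold and 52.1-fold). Inside the cluster there were 3 shared CTCF peaks, one each in an intron of DCN, LUM and EPYC. Between the last 2 of them there were 113 kb without CTCF, and the whole of KERA lies in this stretch.

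A 19-base CTCF motif was learned from peaks on other chromosomes. It was present in 88.3% and 87.5% of CTCF peaks on chromosomes 3, 5, 9 and X, and in 9.70% and 9.60% of control windows 1000 bp away. In the chromosome 5 locus 12 of 14 peaks held it in each replicate. The 3 sites inside the genes are given because they divide the cluster, each read on the strand of the motif with its 19 bases in capitals.
Intron of DCN (chr5:91682973-91683011, minus strand): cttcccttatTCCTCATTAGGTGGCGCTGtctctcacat
Intron of LUM (chr5:91751221-91751259, plus strand): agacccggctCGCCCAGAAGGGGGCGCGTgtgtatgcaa
Intron of EPYC (chr5:91863955-91863993, minus strand): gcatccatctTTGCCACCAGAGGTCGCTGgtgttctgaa

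The LUM and EPYC motifs point towards each other across KERA and the start of EPYC, and the DCN motif points away from both, to the left. The DCN motif scored 11.4, under a stricter limit of 12.8 for a match, which the LUM (15.9) and EPYC (21.1) motifs passed. Contacts between these sites were not analysed here.

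**Figure D4:**
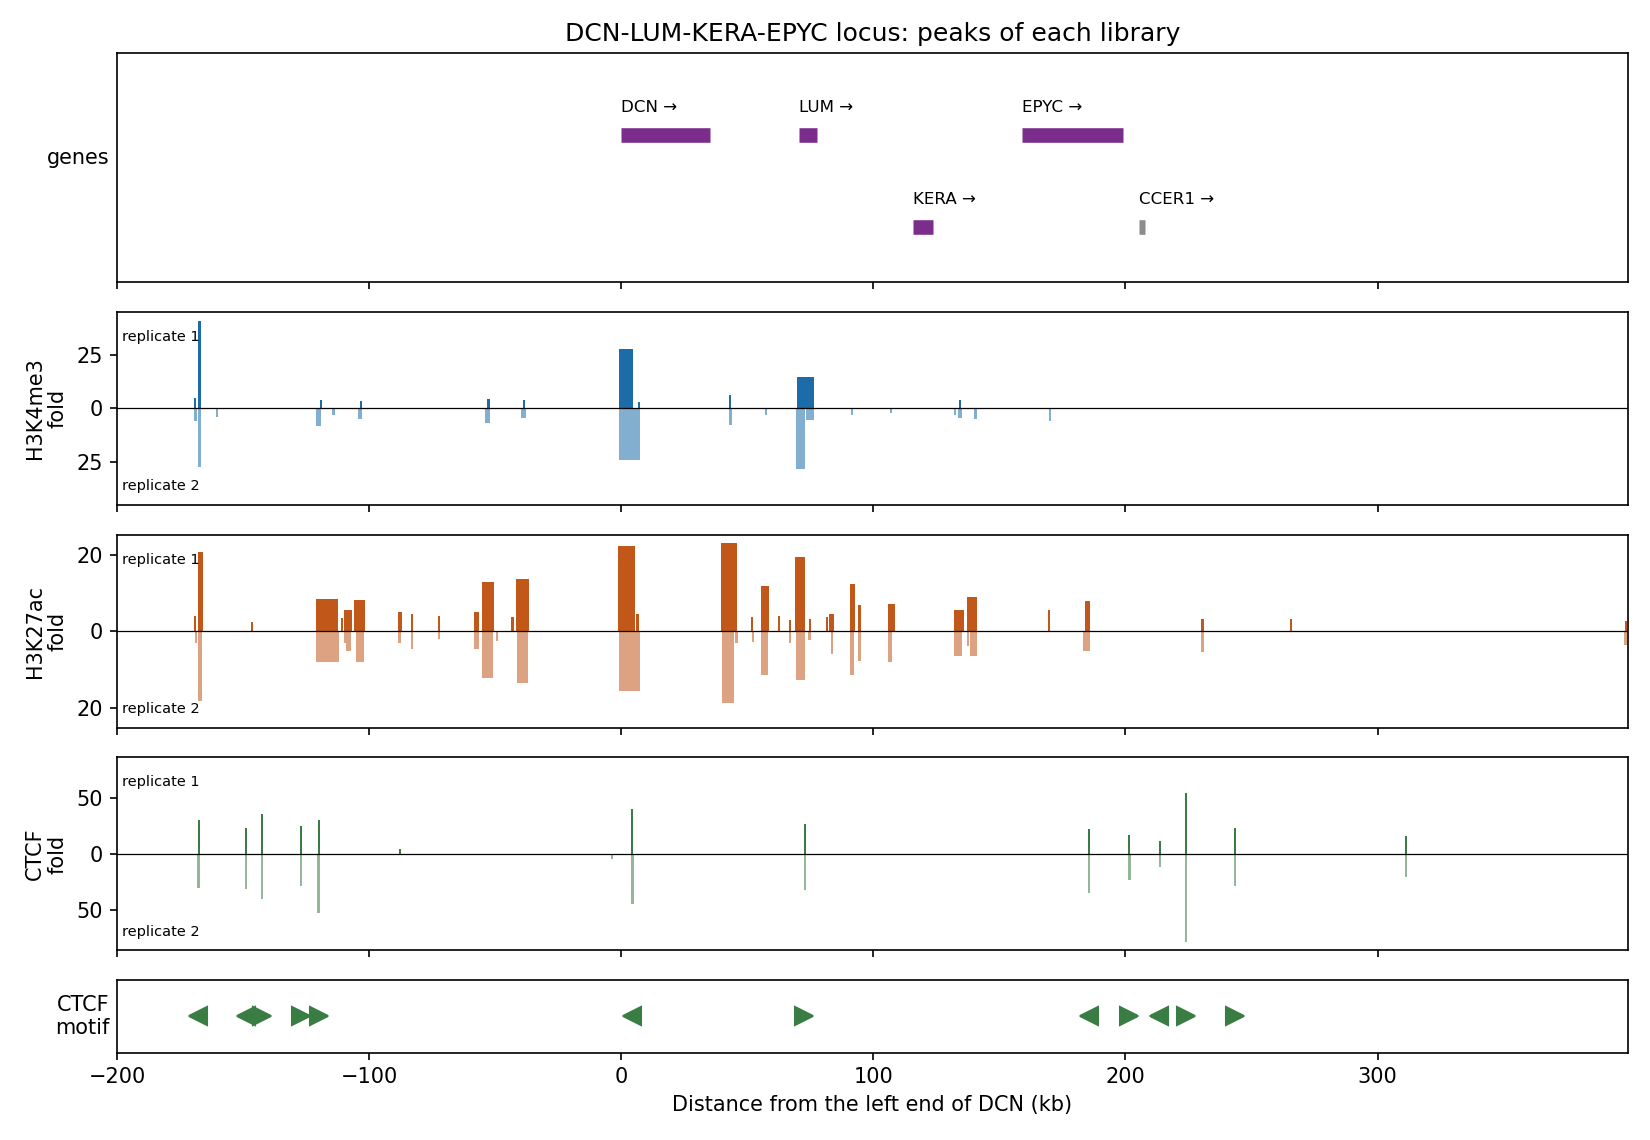
Peaks of the 6 libraries across the DCN-LUM-KERA-EPYC locus, in kb from the left end of DCN. The top row shows protein-coding genes that start in the window (members in purple, arrows for direction). The next 3 rows show fold enrichment over the control, upwards for replicate 1 and downwards for replicate 2, and triangles point in the direction of motifs in shared CTCF peaks. H3K27ac peaks are sparse after EPYC (3 and 2 in 200 kb), and KERA holds no peak.

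The cluster on chromosome 3 with 200 kb on each side (chr3:41916521-42392902, 476 kb) holds more genes. OGN, OMD and ASPN, together with ECM2, a leucine-rich matrix protein that is a relative of the family, lie on the opposite strand inside CENPP, a centromere protein gene. In 4 of the 5 annotated CENPP transcripts all 4 genes are in a single intron of 200.3 kb. ZNF484, IARS, NOL8 and IPPK also start in the window. All 9 genes had H3K4me3 and H3K27ac at the TSS in both replicates, and none had CTCF there.

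The members were set beside the genes that start around them. H3K4me3 was 67.1-fold and 31.1-fold at ZNF484, 45.6-fold and 26.0-fold at IARS (isoleucyl-tRNA synthetase), 58.5-fold and 28.5-fold at the shared promoter of NOL8 and CENPP, and 72.6-fold and 33.9-fold at IPPK, an inositol phosphate kinase. These are all above OGN, OMD and ASPN, whose highest value was 13.2-fold in replicate 1 and 21.8-fold in replicate 2. ECM2, with 11.9-fold and 15.0-fold, lay in the range of the members in each replicate, and its ratio was above 1 as in theirs. In H3K27ac the members and neighbours overlapped in part. OGN (7.43-fold and 6.47-fold) was below all the neighbours in both replicates. In replicate 1, OMD (20.1-fold) and ASPN (25.03-fold) were above ZNF484 (17.3-fold) and IPPK (15.2-fold) and below IARS (30.8-fold), and ASPN was level with NOL8 and CENPP (24.9-fold). In replicate 2, OMD (17.2-fold) was just above ZNF484 (16.4-fold) and IPPK (16.8-fold), while ASPN (11.3-fold) was below all of them, IARS (34.1-fold) and NOL8 with CENPP (32.1-fold) included.

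H3K27ac peaks numbered 37 and 39, or 77.7 and 81.9 per Mb, above the 34.2 and 37.9 per Mb of chromosome 3. H3K4me3 gave 10 and 15 peaks (21.0 and 31.5 per Mb, against 18.8 and 20.8). CTCF gave 6 and 7 peaks (12.6 and 14.7 per Mb, against 18.5 and 20.6), and none of them was between the left end of OGN and the right end of ASPN. The 200 kb to the right of ASPN, which lie upstream of all 3 members, held 21 and 20 H3K27ac peaks, whereas the 200 kb to the left of OGN held 11 and 12.

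Of 29 shared H3K27ac regions, 21 were more than 1 kb from the TSS taken for each gene. Of these 21, 1 overlapped a shared H3K4me3 region. That one was the highest of the locus (chr3:42292192-42298812, 6.62 kb), with 32.5-fold and 37.4-fold H3K27ac, above every promoter of the window. It lies in the CENPP intron, 176 to 182 kb from the left end of OGN, and its H3K4me3 was 18.3-fold and 9.77-fold. By the mean of the replicates, the next regions were the promoters of IARS (30.8-fold and 34.1-fold) and of NOL8 and CENPP (24.9-fold and 32.1-fold).

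The bases around the replicate 1 summit of the highest distal H3K27ac region of each locus are shown as examples, on the plus strand. In replicate 2 the summit of the region between DCN and LUM was at chr5:91721182, outside the bases shown. That of the region in the CENPP intron was at chr3:42296829, within them. Matches to CANNTG and TATAAA are in capitals, and the bases shown from chromosome 3 hold none.
Between DCN and LUM (chr5:91721963-91722063): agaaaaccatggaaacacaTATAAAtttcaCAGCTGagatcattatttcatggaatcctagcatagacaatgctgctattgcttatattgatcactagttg
CENPP intron (chr3:42296780-42296880): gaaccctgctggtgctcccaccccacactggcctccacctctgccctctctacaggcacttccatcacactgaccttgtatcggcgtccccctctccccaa

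In 401 bases around the summits of distal shared H3K27ac regions, TGANTCA was found in 8 of the 25 regions of the chromosome 5 locus and in 2 of the 21 of the chromosome 3 locus, against 18.7% of 49897 such regions in the genome. GGAATG was found in 8 and 5 (21.5%), AACCACA in 2 and 1 (8.85%), and CANNTG in 23 and 17 (86.2%). CCAAT was found in 8 and 7 (39.2%), TATAAA in 6 and 6 (24.3%), and GGGCGG in 1 and 0 (12.8%). The 25 include the region at the second start of EPYC. With so few regions these counts are a description only.

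CTCF left the 4 genes of the intron free. Its shared peaks at the left were 37 and 34 kb before the left end of OGN, with 22.0-fold and 28.2-fold at the first and 13.5-fold and 13.2-fold at the second. Another of 5.54-fold was seen 23.5 kb before OGN in replicate 2 only. The next CTCF peak to the right was 217 kb from the left end of OGN (35.3-fold and 43.97-fold), which leaves 240.7 kb without a CTCF peak in either replicate. OGN, OMD, ASPN and ECM2 with their start sites all lie in this stretch. The sites are shown because their motifs point inwards on both sides, with the 19 bases of the motif in capitals and each read on its own strand.
Left, outer (chr3:41931021-41931059, plus strand): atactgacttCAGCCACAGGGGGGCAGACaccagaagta
Left, middle (chr3:42079442-42079480, plus strand): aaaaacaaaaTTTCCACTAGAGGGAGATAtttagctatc
Left, inner (chr3:42082193-42082231, plus strand): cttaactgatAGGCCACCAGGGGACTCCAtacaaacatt
Right, inner (chr3:42333640-42333678, minus strand): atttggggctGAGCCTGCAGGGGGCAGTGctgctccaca
Right, outer (chr3:42376056-42376094, minus strand): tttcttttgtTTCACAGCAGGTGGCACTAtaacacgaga

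All 3 motifs at the left are on the plus strand and both at the right are on the minus strand, so that each left motif faces each right motif across the 4 genes. How common such an order of motifs, or a stretch of this length without CTCF, is in the genome was not computed. In this locus 5 of 6 CTCF peaks in replicate 1 and 5 of 7 in replicate 2 held the motif. The shared peak without it was weak (5.97-fold and 3.47-fold). In the chromosome 5 locus the motifs showed no such order, with 3 on the plus strand and 2 on the minus strand before DCN and 3 and 1 after EPYC.

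**Figure D5:**
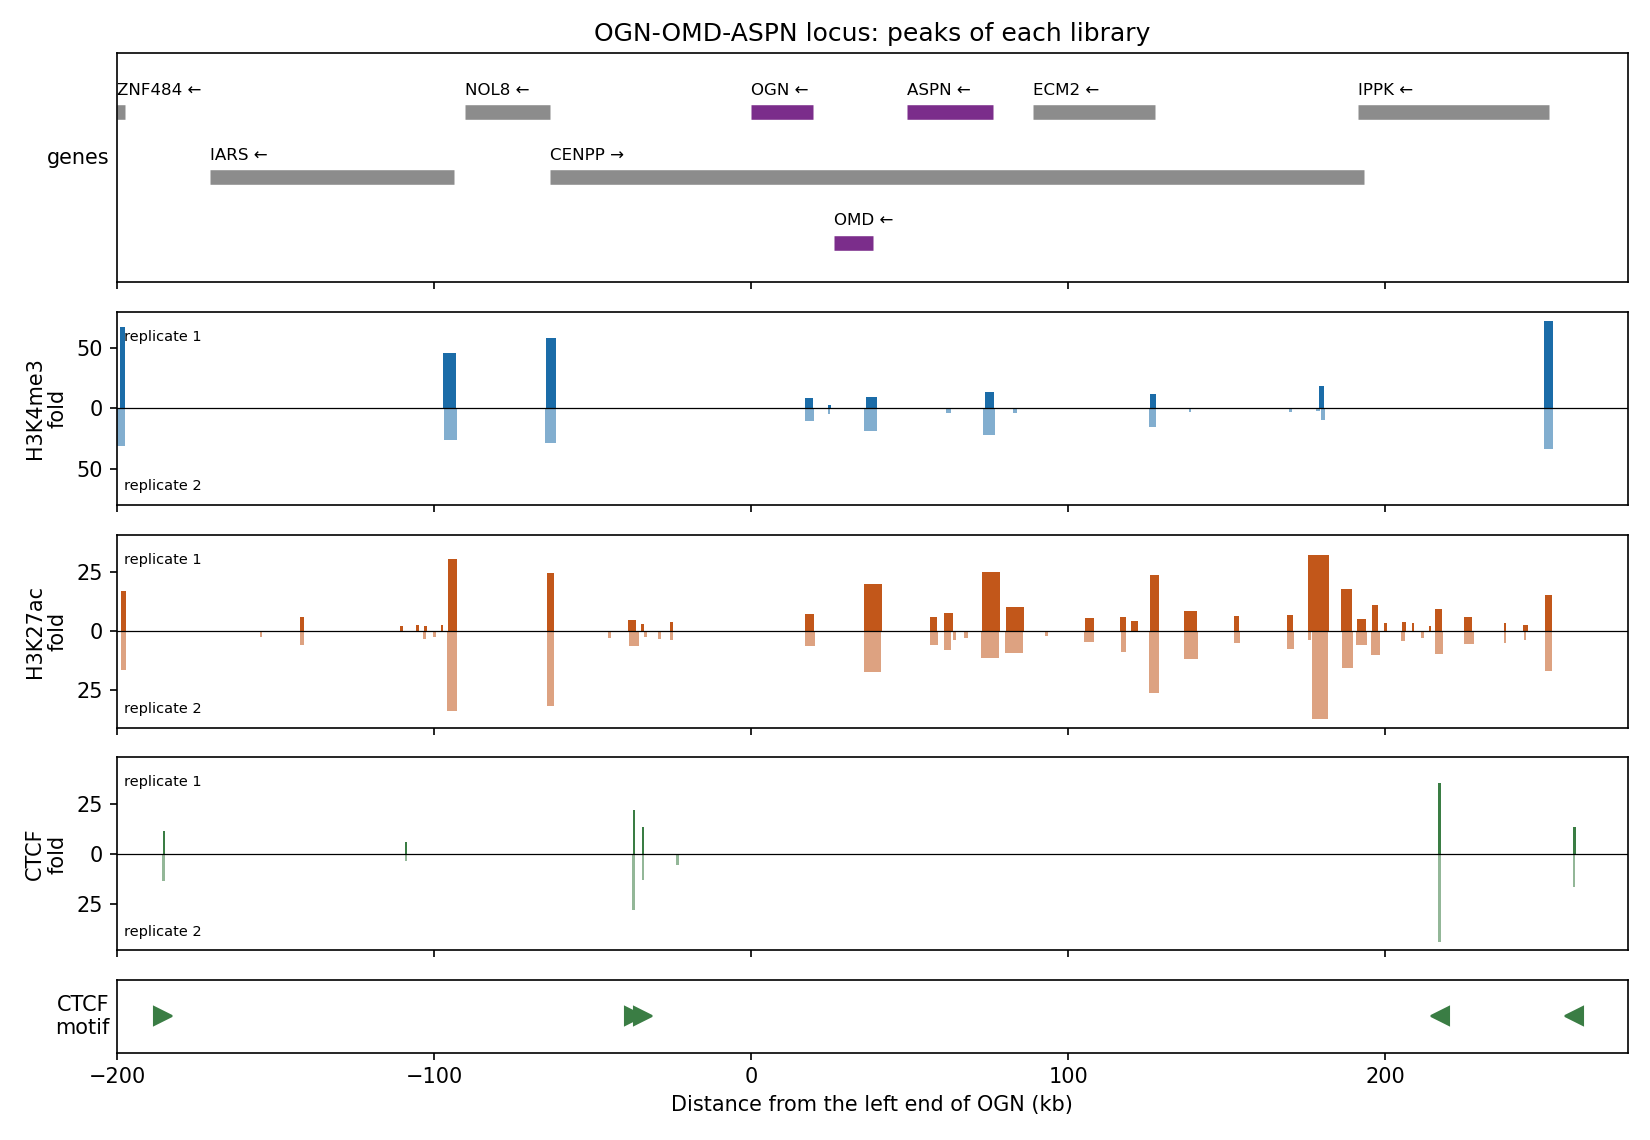
Peaks of the 6 libraries across the OGN-OMD-ASPN locus, in kb from the left end of OGN, drawn as for the chromosome 5 locus. H3K4me3 is high at ZNF484, IARS, NOL8 with CENPP, and IPPK and low at OGN, OMD, ASPN and ECM2, and 240.7 kb around these 4 genes hold no CTCF peak while the motif triangles on both sides point inwards.

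Genes that act with the family were described from 3 lists. Of 8 other small leucine-rich proteins, 6 had both histone marks at the TSS in both replicates, against 58.9% of all genes. TSKU, a secreted relative (37.5-fold and 28.6-fold H3K4me3), and PODN (46.4-fold and 17.3-fold) had the highest mean H3K4me3, and CHADL and OPTC, the opticin of the eye, had no peak. NEPN of this list had no entry in the annotation used. Of 18 other proteoglycan core proteins, 14 had H3K4me3 (68.9% of all genes) and 9 had both marks (58.9%), which is near the background. By the mean of the replicates CSPG4 (75.1-fold and 36.0-fold) and the syndecan SDC2 (64.2-fold and 31.6-fold) were highest, and the large matrix proteoglycan VCAN and the brain proteoglycan NCAN had no peak within 1 kb of the annotated TSS. In replicate 1 alone, GPC1 (65.8-fold) and SDC1 (64.6-fold) were above SDC2.

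The enzymes that build and sulfate the glycosaminoglycan chains were marked more evenly. Of the 24 enzymes with an annotated gene out of 28, all 24 had H3K4me3 (68.9% of all genes) and 22 had both marks (58.9%). By the mean of the replicates 2 were highest. XYLT1, which starts the chain by adding xylose to the core protein, had 77.0-fold and 37.9-fold H3K4me3, and the chondroitin sulfotransferase CHST11 had 79.0-fold and 35.7-fold. The order differed within replicates. UST (78.2-fold) was above XYLT1 in replicate 1, and B3GAT3 (41.1-fold) and CHSY3 (40.4-fold) were above both in replicate 2. The list had a median H3K4me3 of 62.5-fold and 26.2-fold at the TSS, where the 8 marked core protein genes had 14.9-fold and 19.3-fold. Of all genes with a CpG ratio of 0.6 or more, 97.2% had H3K4me3, with medians of 54.5-fold and 26.3-fold. The CpG ratio of the enzyme genes was not computed, and its part in the difference was not tested. B4GALT4, CHPF2, CHST5 and CHST6 were not matched by symbol.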

How the data were processed

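Peak lists of 6 ChIP-seq libraries of untreated PEFs were used, 2 per mark, and each was assigned to its mark from the sample title. Per the study's methods, the authors aligned reads by bowtie2, filtered for unique fragments with samtools, discarded PCR duplicates by means of Picard, and ran MACS2 on every library to find narrow peaks. The deposited lists give a fold enrichment, which is a ratio over the control, and a −log10 q-value for each peak. A q-value of 0.01 is stated, whereas the highest in the lists was 0.0432 to 0.0499, and the lists were used whole. Read counts per peak are not in the lists, so no counting interval was given. Input libraries were not used here.

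Peaks were joined to RefSeq genes of Sscrofa11.1, the build named in the submitters' notes, with Python 3.11.15 and numpy 2.4.6. Where several peaks lay within 1 kb of a TSS the highest fold enrichment was taken. As no treatment was compared and each mark had 2 libraries, no test was made, and counts were set beside all protein-coding genes. The CTCF motif was learned from 600 peaks on chromosomes other than 3, 5, 9 and X. On simulated sequences the search found 97.3% of planted motifs, with 3.6% false hits.

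The genes, lists and named regions were chosen with earlier results of these data known. Named were the 10 genes, the protein-coding genes that start in the windows, the 3 highest shared regions per locus and mark, the nearest shared peak of KERA and EPYC, and up to 4 examples per list (the 2 with the highest mean H3K4me3 and the first 2 without it). The alternatives were a stricter q-value, other distances, other transcripts, other windows, a stricter overlap and leaving out a replicate.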

Additional observations from a re-analysis of the deposited data

How the results depend on the processing

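Of 62 alternative values for 14 results, 45 stayed within 1.5 times the count, or within 1 SD of the density, that is reported. The SD is that of the 2 replicates, so a density with 1 replicate left out stays within it by arithmetic. These values are among the 45. For CTCF in the chromosome 5 locus the SD was 0, so that any change counts as a move. No paired analysis was possible because no result comes from a test. With summits in place of whole peaks within 1 kb of the TSS, H3K4me3 fell from 8 to 2 genes (FMOD, BGN) and H3K27ac from 8 to 5. In the genes that were lost the summit lay more than 1 kb from the TSS in at least 1 replicate. Without the first 1 kb of the gene body, H3K4me3 summits remained in 3 genes and H3K27ac summits in 5. With a distance of 5 kb, CTCF was near the TSS of 3 genes (DCN, LUM, BGN) and not 0. The share of all protein-coding genes under these settings was not computed, so that these counts cannot be set beside a background. With 1 replicate alone, CTCF was at the TSS of 0 to 1 genes (BGN, without replicate 1). Peaks per Mb across the chromosome 5 locus, as a mean of replicates, were 55.1 for H3K27ac and moved to 42.6 with a −log10 q-value of at least 5, to 63.9 with 100 kb on each side and to 43.4 with an overlap of at least 50% of both peaks. For CTCF they were 23.4 in each replicate and moved to 22.5, 20.04 and 21.7 under the same settings, and for H3K4me3 from 25.03 to 10.01 with the stricter overlap. Across the chromosome 3 locus, H3K27ac moved from 79.8 to 58.8, 75.98 and 56.7, and CTCF from 13.6 to 9.05 with 100 kb on each side. The densities of the whole chromosomes were not recomputed with the stricter q-value or overlap, so these values cannot be set beside those given above. The cause of these moves was not tested. With any transcript's TSS, EPYC was added for H3K27ac. The lists do not give the reads behind a peak, and an absent peak says only that none was called.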

Other observations

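The surroundings of FMOD and PRELP and of BGN were looked at after the values of the clusters had been seen, with the same 200 kb on each side. The window of FMOD and PRELP (544 kb) held 65 and 73 H3K27ac peaks, or 119 and 134 per Mb, where chromosome 9 had 32.1 and 34.03 per Mb. These peaks covered 31.5% and 31.4% of the window. The 117 kb between the genes held 10 and 15 of them, and 1 and 2 CTCF peaks. OPTC, a relative expressed in the eye that starts 4.47 kb after the end of PRELP, had neither histone mark at its TSS. Around BGN, 413 kb held 16 and 18 H3K27ac peaks (38.7 and 43.5 per Mb, against 12.2 and 12.8 over the X chromosome) and 16 and 19 CTCF peaks (38.7 and 45.96 per Mb, against 9.59 and 11.03). That window has 17 start sites of RefSeq genes of any kind, against 7 around FMOD and PRELP.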
